A study of Mus musculus with 10 samples.

Results

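Endothelial genes were examined in left ventricular (LV) tissue of young mice with a pressure-overloaded LV. The set held 40 genes chosen by name for their known place in the vascular tree, namely 15 general endothelial genes, 8 capillary genes, 5 arterial and Notch genes, 2 venous genes, 4 adhesion genes, 2 endocardial or fenestrated vessel genes, 2 lymphatic genes and 2 genes that respond to blood flow. Of the 40 genes, 38 had a row among the 55401 genes of the tables, and 36 of these were among the 11867 genes expressed highly enough to be tested. Meox2os and Npr3os had no row under these names, and Sele and Selp lay below the expression filter. The mice were wild type (WT), on the C57BL/6 background, and all were 4 weeks of age. One group of 5 mice had undergone neonatal ascending aorta constriction (nAAC), in which a ligature narrows the aorta just above the heart soon after birth, and the other group of 5 mice had a sham operation without constriction. Males and females were allotted to both operations at random, and the labels do not give the sex of a mouse. Whole LV tissue was taken, so that each library mixes cardiomyocytes, fibroblasts, vessels and blood. In such samples fewer cells of a type and less RNA per cell cannot be told apart.

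The endothelium lines every vessel and the inner face of the heart. All endothelial cells share a core of junction proteins, such as VE-cadherin, and transcription factors of the ETS and SOX families. On top of this core the cells of each vessel type hold their own program. Notch signaling keeps the arterial state, Nr2f2 keeps the venous state, Prox1 starts the lymphatic state, and heart capillaries carry the proteins that bring lipoprotein fat to the muscle. Cells that sprout, known as tip cells, change their matrix and receptor genes, and activated endothelium displays adhesion molecules that catch leukocytes.

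Levels are given in FPKM, which counts fragments per length of gene and per size of library, a unit that corrects for gene length and library depth. A log2 FC is the mean log2(FPKM + 1) of nAAC mice minus that of sham mice, with its standard error (SE). A gene was called when its limma p value, adjusted over all tested genes, was below 0.05, and was a DEG when its log2 FC also exceeded 1 in size. The whole LV transcriptome leaned upward, with a median log2 FC of 0.22 over all tested genes, 27.1% of tested genes called up and 4.6% called down. Estimated depth ran from 4.86 to 6.82 gigabases in nAAC libraries and from 5.06 to 5.24 in sham libraries. Mitochondrial transcripts took 32.8 to 39.9% of TPM in nAAC and 33.7 to 49.8% in sham, where replicate 4 stood lowest. Calls are therefore also given after median-ratio scaling, which divides each library by the median of its ratios to a common reference and brings the median log2 FC of all genes to about 0. With that scaling 13.2% of tested genes were called up and 12.1% down.

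Of the 36 tested endothelial genes, 8 were called up (22.2%) and 1 was called down (2.78%), so that the share called up was below that of all genes. Car4 fell, and Eng, Robo4, Sox18, Vwf, Notch1, Vcam1, Icam1 and Klf4 rose. The median log2 FC of the set was 0.31, which is 0.08 above that of all genes. After median-ratio scaling, 2 genes were called up (Vwf and Icam1, 5.56%) and 4 were called down (Car4, Gpihbp1, Rgcc and Apln, 11.1%). The 4 genes called down with this scaling were all capillary genes. Eng, Robo4, Sox18, Notch1, Vcam1 and Klf4 lost their call with this scaling while their log2 FC stayed above 0. In 4 of the 36 genes every nAAC library lay above every sham library, against 18.9% of all tested genes. In 1 gene, Car4, every sham library lay above every nAAC library, against 3.46% of all tested genes.

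**Figure D1:**
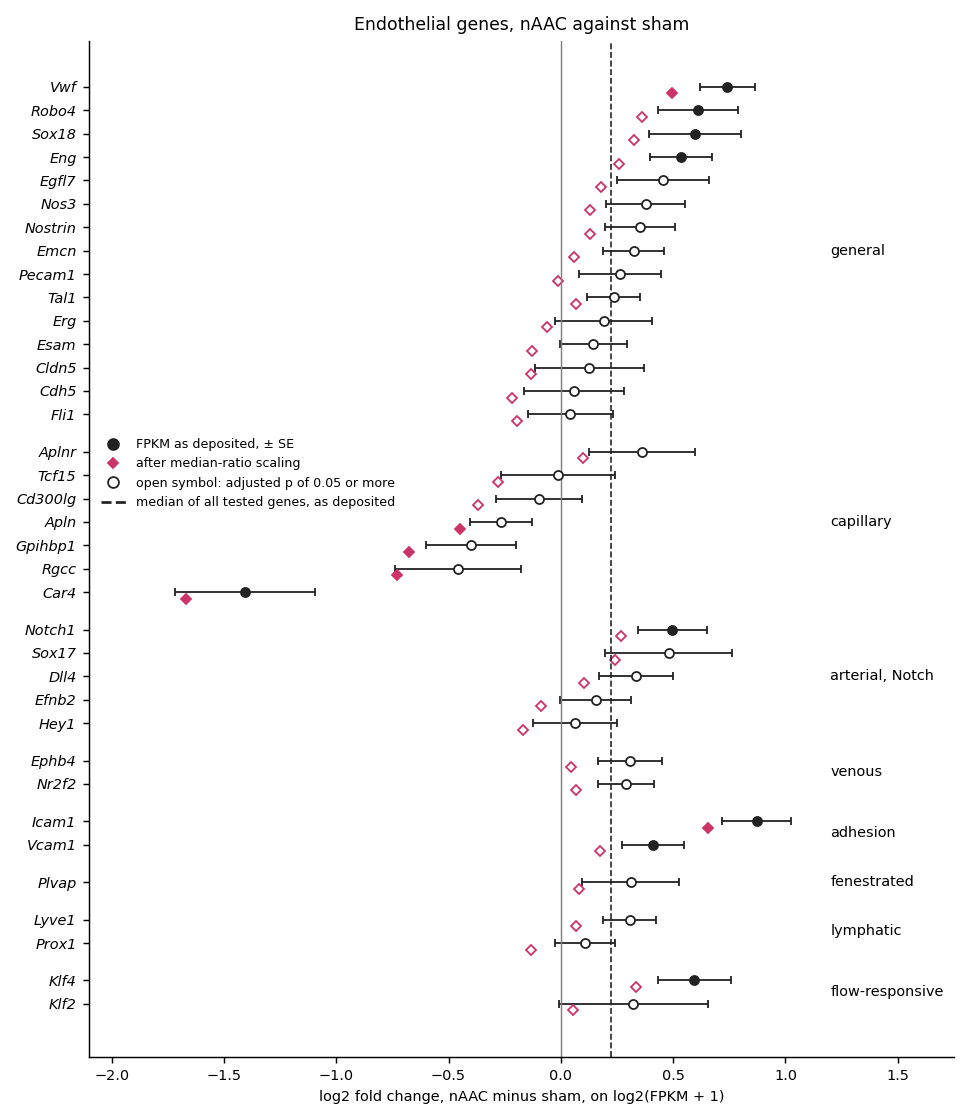
The log2 FC of each of the 36 tested endothelial genes (nAAC minus sham, on the log2(FPKM + 1) scale; circles with bars of 1 SE) is shown by vessel type, together with the value after median-ratio scaling (diamonds). Filled symbols have an adjusted p below 0.05. Car4 lies far to the left at -1.41, Vwf and Icam1 are the only genes with filled symbols to the right of 0 on both scales, and most of the others lie close to the dashed line, the median of all tested genes (0.22).

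The upstream sequences of 3 genes are shown because these genes span the range of log2 FCs within the set. They are Car4, the gene with the largest fall, Icam1, the gene with the largest rise, and Robo4, a general endothelial gene. Each run holds the 250 bases before the gene's start in RefSeq on GRCm38.p6, on the plus strand, 5′ to 3′. Capitals mark, wherever they occur in the 3 windows, GGAAG or its reverse CTTCC, the core bound by ETS factors such as Erg and Fli1, CACCC or its reverse GGGTG, the core bound by Klf2 and Klf4, ACAAT or its reverse ATTGT, a core bound by SOX factors, and GGAANTTCC, an NF-kB site that reads the same on both strands.
Car4, chr11:84957504-84957753: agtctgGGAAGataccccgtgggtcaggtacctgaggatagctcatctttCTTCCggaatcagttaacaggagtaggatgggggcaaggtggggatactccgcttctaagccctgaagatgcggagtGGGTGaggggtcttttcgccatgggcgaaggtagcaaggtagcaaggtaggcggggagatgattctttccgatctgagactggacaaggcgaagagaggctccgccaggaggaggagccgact
Icam1, chr9:21015690-21015939: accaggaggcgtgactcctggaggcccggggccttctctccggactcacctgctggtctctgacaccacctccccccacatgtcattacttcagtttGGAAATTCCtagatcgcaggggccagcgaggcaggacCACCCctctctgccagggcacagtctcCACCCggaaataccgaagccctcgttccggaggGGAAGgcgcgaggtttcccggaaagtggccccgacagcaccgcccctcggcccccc
Robo4, chr9:37401722-37401971: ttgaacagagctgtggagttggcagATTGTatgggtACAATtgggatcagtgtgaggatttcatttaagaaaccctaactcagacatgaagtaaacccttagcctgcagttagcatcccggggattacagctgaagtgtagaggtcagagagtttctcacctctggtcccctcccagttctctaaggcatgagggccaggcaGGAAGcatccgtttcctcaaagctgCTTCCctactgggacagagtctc
The marked stretches do not overlap. The Car4 window held 2 matches to the ETS core and 1 to the KLF core. The Icam1 window held 1 match to the ETS core, 2 to the KLF core and 1 to the NF-kB site, which starts 153 bases before the gene's start. The Robo4 window held 2 matches to the ETS core and 2 to the SOX core. Of all 32851 promoters of this table, 64.1% held the ETS core in the same window, 52.0% the KLF core, 27.7% the SOX core and 0.813% the NF-kB site. Of the 38 endothelial genes with a row, 22 had a promoter entry, with 28 promoters among them. The ETS core stood in 21 of these 28, the KLF core in 17, the SOX core in 3 and the NF-kB site in 2. These short matches describe the letters of the window and do not show binding.

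Most of the general endothelial genes were not called. Pecam1, the adhesion molecule CD31 at endothelial junctions, had 57.3, 42.0, 43.3, 75.4 and 67.9 FPKM in nAAC replicates 1 to 5 and 44.6, 47.9, 45.0, 37.2 and 59.2 FPKM in sham replicates 1 to 5. The groups overlapped over most of their range. The log2 FC was 0.26 (SE 0.18, adjusted p = 0.287), close to the median of all genes, and -0.01 after median-ratio scaling. Cdh5, which encodes VE-cadherin, averaged 49.8 ± 14.8 FPKM in nAAC and 47.5 ± 13.0 FPKM in sham (mean ± SD, n = 5 each, log2 FC 0.06). The ETS factors Erg and Fli1, which maintain endothelial identity, gave log2 FCs of 0.19 and 0.04. Esam and Cldn5, which encode junction proteins, gave 0.14 and 0.13. Cdh5, Erg, Fli1, Esam and Cldn5 all lay below the median of all genes, and after median-ratio scaling their log2 FCs were between -0.22 and -0.06 with no call.

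Emcn, a sialomucin of capillaries and veins, averaged 18.8 ± 2.58 FPKM in nAAC and 14.8 ± 2.33 FPKM in sham (log2 FC 0.32, adjusted p = 0.0872). Nos3, the endothelial nitric oxide synthase, and Nostrin, which binds that enzyme and moves it from the membrane, had log2 FCs of 0.38 and 0.35. Tal1, a transcription factor of blood and endothelial precursors, was the least abundant of the general genes, at 1.65 ± 0.379 FPKM in nAAC and 1.24 ± 0.187 FPKM in sham. Egfl7, a secreted factor of the vessel wall and host gene of a microRNA, was the most abundant, at 71.4 ± 13.2 FPKM in nAAC and 53.0 ± 16.3 FPKM in sham (log2 FC 0.45, adjusted p = 0.105). Its 3′ end overlaps that of Agpat2 on the other strand, and whether strand was used in counting is not given in the sources used here. None of these 5 genes was called on either scale with all libraries. Nos3 was called up without sham replicate 5 (adjusted p = 0.0284), Egfl7 without sham replicate 4 (0.0239) and Nostrin without nAAC replicate 3 (0.0448) or sham replicate 2 (0.0263).

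Vwf was the general gene with the clearest rise. It encodes von Willebrand factor, the large glycoprotein that endothelial cells store and release to tether platelets. Vwf had 12.1, 9.30, 8.25, 12.4 and 9.30 FPKM in nAAC replicates 1 to 5 and 6.16, 5.26, 5.72, 5.70 and 5.54 FPKM in sham replicates 1 to 5. Every nAAC library lay above every sham library, and the sham libraries lay close together. The nAAC mean was 1.81 times the sham mean, with a log2 FC of 0.74 (SE 0.12, adjusted p = 0.000614) and 0.49 after median-ratio scaling (adjusted p = 0.0101). Removing the trends of each library on GC content and transcript length ended the call (log2 FC 0.29, adjusted p = 0.118). Vwf is also made by megakaryocytes and platelets. Of 6 platelet markers 5 were below the filter, the summed level of the 6 was 15.3 to 26.7 FPKM in nAAC and 12.0 to 21.5 FPKM in sham, mostly from Pf4, and Pf4 was not called (log2 FC 0.29, adjusted p = 0.298). Their part in the Vwf result was not tested.

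Eng, Robo4 and Sox18 also rose on the deposited scale. Eng encodes endoglin, a co-receptor for BMP and TGF-beta ligands. It had 48.1, 46.0, 55.0, 58.3 and 60.9 FPKM in nAAC replicates 1 to 5 and 45.5, 31.1, 36.0, 32.2 and 39.3 FPKM in sham replicates 1 to 5. The lowest nAAC library was only slightly above the highest sham library, and the log2 FC was 0.54 (SE 0.14, adjusted p = 0.0101). Robo4, a receptor that stabilizes vessels, had 9.91, 9.15, 9.44, 15.0 and 12.3 FPKM in nAAC and 6.52, 6.02, 5.69, 5.99 and 11.0 FPKM in sham. Sham replicate 5 lay within the nAAC range and the other 4 sham libraries lay below it (log2 FC 0.61, SE 0.18, adjusted p = 0.0206). Sox18, a transcription factor of endothelial and lymphatic development, had 41.2, 25.3, 33.0, 49.3 and 43.0 FPKM in nAAC and 32.4, 19.6, 17.6, 25.0 and 30.6 FPKM in sham. The groups overlapped (log2 FC 0.60, SE 0.21, adjusted p = 0.0416). After median-ratio scaling the log2 FCs of Eng, Robo4 and Sox18 were 0.26, 0.36 and 0.33, with adjusted p = 0.180, 0.0827 and 0.229. Leaving out nAAC replicate 4, nAAC replicate 5 or sham replicate 3 ended the calls of Robo4 and Sox18, and Sox18 also lost its call without nAAC replicate 1, nAAC replicate 3 or sham replicate 2. With 1 library left out the adjusted p reached 0.0568 for Robo4 and 0.110 for Sox18, at log2 FCs that stayed between 0.51 and 0.76 and between 0.49 and 0.73. All 15 general genes had a log2 FC above 0, and the lower quartile of all tested genes was also above 0 (0.02). The median of the 15 was 0.32, which is 0.10 above that of all genes. Of the 15, 4 were called up (26.7%), close to the 27.1% of all tested genes. After median-ratio scaling 9 of the 15 were above 0.

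**Figure D2:**
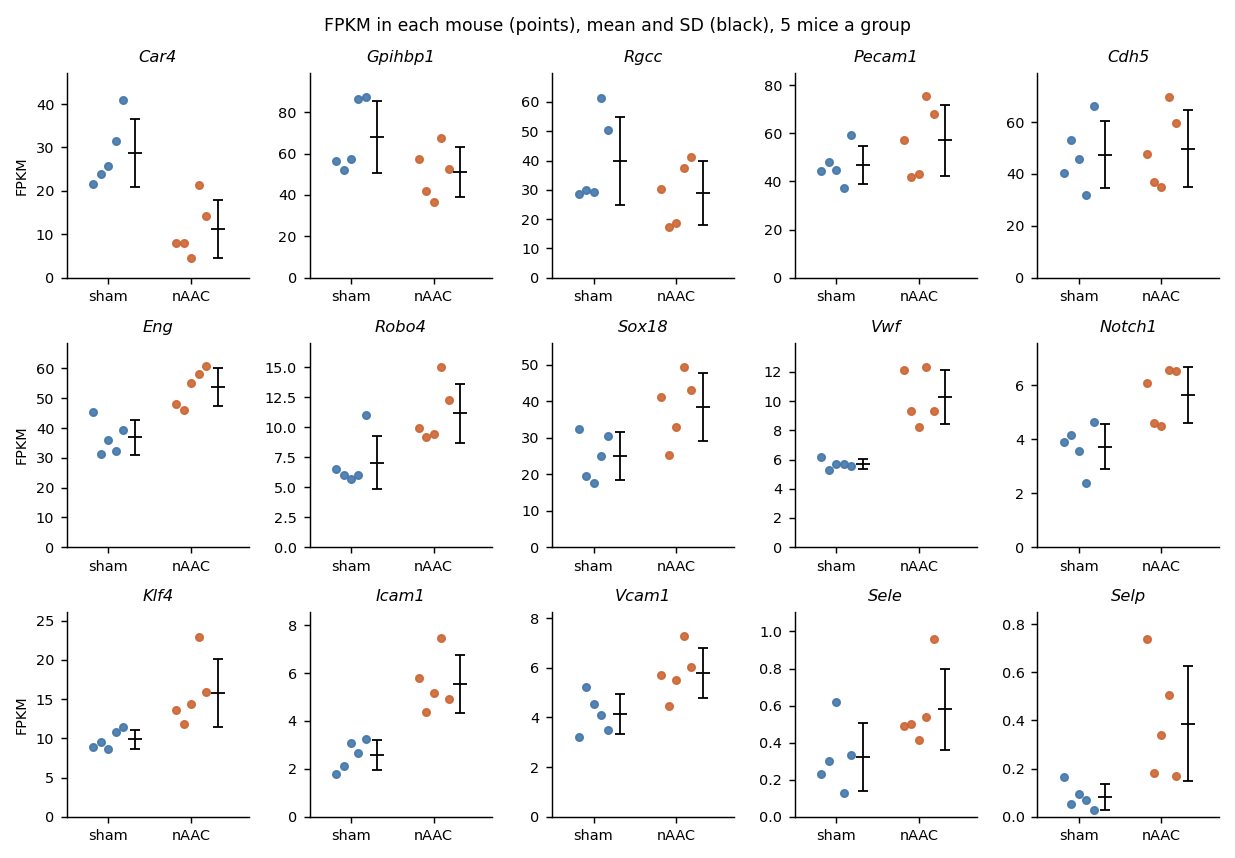
FPKM of 15 endothelial genes in each mouse (points; y axes start at 0 and differ between panels), with the mean and SD of the 5 mice of a group in black. The sham points of Car4 all lie above the nAAC points, the nAAC points of Vwf, Icam1, Klf4, Eng and Selp all lie above the sham points, and those of Pecam1 and Cdh5 are mixed.

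Of the 7 tested capillary genes, 6 had a log2 FC below 0 and 1, Car4, was called down (14.3%, against 4.6% of all tested genes). Car4, which encodes carbonic anhydrase 4, an enzyme anchored to the outer membrane of capillary endothelium that interconverts carbon dioxide and bicarbonate, had 7.95, 8.10, 4.59, 21.4 and 14.3 FPKM in nAAC replicates 1 to 5. The sham replicates 1 to 5 had 21.6, 23.8, 25.7, 31.4 and 41.0 FPKM. The highest nAAC library, replicate 4, came close to the lowest sham library, whereas replicates 1, 2 and 3 lay far below. The sham mean was 2.55 times the nAAC mean, and the log2 FC was -1.41 (SE 0.31, adjusted p = 0.00445), at percentile 0.455 of all tested genes. Car4 was the only DEG of the set, and 0.893% of all tested genes were DEGs that fell. The call held with each of the 10 libraries left out in turn and under each of the 12 alternative settings, with a log2 FC of -1.90 to -1.15 over these settings.

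Gpihbp1, Rgcc and Apln were lower in nAAC on average. They were not called on the deposited scale and were called down after median-ratio scaling, after upper-quartile scaling and with GC and length trends removed, and Gpihbp1 and Rgcc also with Xist as a covariate. Gpihbp1 holds lipoprotein lipase on the capillary surface. It had 57.2, 41.8, 36.7, 67.4 and 52.3 FPKM in nAAC and 56.5, 52.0, 57.5, 86.5 and 87.3 FPKM in sham. The groups overlapped, because nAAC replicates 1, 4 and 5 reached the level of the lower sham libraries. The log2 FC was -0.40 (SE 0.20, adjusted p = 0.141), and -0.68 after median-ratio scaling (adjusted p = 0.00838). Rgcc, a cell cycle regulator used as a capillary marker in the heart, had 30.2, 17.3, 18.6, 37.5 and 41.2 FPKM in nAAC and 28.6, 30.0, 29.1, 61.3 and 50.6 FPKM in sham. Sham replicates 4 and 5 stood above all other libraries (log2 FC -0.46, adjusted p = 0.228, and -0.73 with adjusted p = 0.0457 after median-ratio scaling). The scaled call of Rgcc did not hold without sham replicate 4 (log2 FC -0.57, adjusted p = 0.0765). Apln, the peptide ligand apelin, was low throughout, at 1.24 to 2.33 FPKM in nAAC and 1.64 to 2.87 FPKM in sham (log2 FC -0.27, and -0.45 with adjusted p = 0.0141 after median-ratio scaling).

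The other 3 capillary genes were not called on either scale. Aplnr, the apelin receptor, averaged 16.9 ± 3.69 FPKM in nAAC and 13.5 ± 5.27 FPKM in sham, and was the only capillary gene with a log2 FC above 0 (0.36). Tcf15, a transcription factor that with Meox2 drives fatty acid uptake by heart endothelium, averaged 20.3 ± 4.45 FPKM in nAAC and 21.6 ± 9.87 FPKM in sham. Cd300lg, a capillary surface glycoprotein, averaged 26.3 ± 7.74 FPKM in nAAC and 27.6 ± 5.18 FPKM in sham. The median log2 FC of the 7 tested capillary genes was -0.27, which is 0.49 below that of all genes. After median-ratio scaling 4 of the 7 were called down (57.1%, against 12.1% of all tested genes).

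A ratio to Pecam1 within the same library does not depend on how libraries were scaled, apart from the pseudocount, and was used to set each gene against a general endothelial gene. It is a description and was not tested. The log2 ratio of Car4 to Pecam1 was -2.37 on average in nAAC and -0.71 in sham, a difference of -1.67. Rgcc differed by -0.72, Gpihbp1 by -0.66 and Apln by -0.53. In all 4 genes every nAAC library lay below every sham library, by a very small margin for Rgcc and Apln. The share of all tested genes that separate on this ratio was not determined, and each difference includes the log2 FC of Pecam1 itself (0.26). Cd300lg differed by -0.36, with overlap by a small margin. Icam1 and Vwf differed by 0.61 and 0.48 in the other direction, with overlapping groups, and Cdh5 differed by -0.20.

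**Figure D3:**
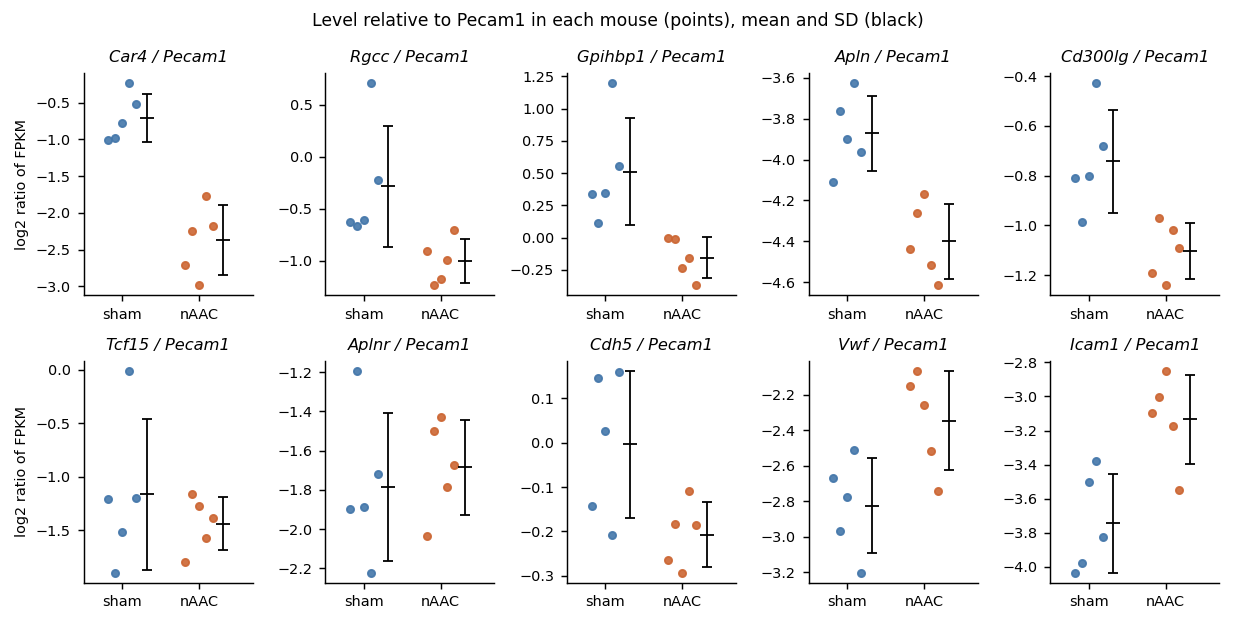
Log2 ratio of the FPKM + 1 of each gene to that of Pecam1 in each mouse (points; y axes differ between panels and do not start at 0), with the mean and SD of the 5 mice of a group in black. Car4, Rgcc, Gpihbp1 and Apln are lower in every nAAC mouse than in any sham mouse, while Tcf15, Aplnr, Cdh5, Vwf and Icam1 overlap. The share of all tested genes that separate on this ratio was not determined.

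Whole classes were also set against the general genes. For each library the log2 values of a class were centered on each gene and averaged, and the average of the general genes was subtracted. This difference was -0.53 to -0.14 for capillary genes in nAAC libraries and 0.19 to 0.56 in sham libraries. Without Car4 it was -0.35 to -0.08 in nAAC and 0.12 to 0.47 in sham, so that the groups stayed apart. Before the subtraction the capillary average, with Car4, overlapped between groups, at -0.57 to 0.32 in nAAC and -0.07 to 0.55 in sham. The difference therefore includes that of the general genes, whose average had a mean of 0.17 in nAAC and -0.17 in sham. For arterial genes it was -0.10 to 0.10 in nAAC and -0.14 to 0.09 in sham, and for venous genes -0.06 to 0.05 in nAAC and -0.10 to 0.10 in sham. Arterial, venous, adhesion, lymphatic and flow-responsive genes overlapped between groups on this measure. These scores were not tested, and how often sets of other genes separate on this measure was not determined.

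Among the arterial genes 1 of 5 was called up, beside 27.1% of all tested genes. So few genes cannot tell these shares apart. The median log2 FC of the 5 was 0.33, against 0.22 for all genes. Notch1, the receptor that holds endothelium in the arterial and quiescent state, had 6.07, 4.59, 4.48, 6.56 and 6.51 FPKM in nAAC replicates 1 to 5 and 3.89, 4.17, 3.57, 2.38 and 4.62 FPKM in sham replicates 1 to 5. Sham replicate 5 reached the lower nAAC libraries, and the log2 FC was 0.50 (SE 0.15, adjusted p = 0.0257). After median-ratio scaling it was 0.27 (adjusted p = 0.226), and leaving out nAAC replicate 1, 4 or 5 or sham replicate 3 ended the call (adjusted p up to 0.0676, log2 FC 0.38 to 0.56 over the libraries left out). Without sham replicate 5, Dll4 and Sox17 were called up (adjusted p = 0.0489 and 0.0382), as was the venous gene Ephb4 (adjusted p = 0.0238). With all libraries, the Notch ligand Dll4 averaged 5.67 ± 1.60 FPKM in nAAC and 4.24 ± 0.932 FPKM in sham, and the Notch target Hey1 averaged 4.49 ± 1.39 and 4.21 ± 1.05 FPKM. Sox17, an arterial transcription factor, gave 8.87 ± 3.06 and 6.39 ± 3.52 FPKM, and Efnb2, the arterial ephrin ligand, gave 7.18 ± 1.88 and 6.25 ± 0.986 FPKM. Dll4, Hey1, Sox17 and Efnb2 had log2 FCs of 0.06 to 0.48 and no call. The venous genes Ephb4, the receptor of Efnb2, and Nr2f2, the transcription factor that sets venous fate, had log2 FCs of 0.31 and 0.29, with adjusted p = 0.119 and 0.0900. The ligand Efnb2 and its receptor Ephb4 thus gave log2 FCs of 0.16 and 0.31, on either side of the median of all genes.

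The adhesion molecules gave the largest rise of the set. Icam1, the ligand of leukocyte integrins, had 5.81, 4.36, 5.15, 7.47 and 4.90 FPKM in nAAC replicates 1 to 5 and 1.78, 2.10, 3.06, 2.67 and 3.25 FPKM in sham replicates 1 to 5. The groups did not overlap, and the nAAC mean was 2.15 times the sham mean (log2 FC 0.87, SE 0.15, adjusted p = 0.000908). The log2 FC was 0.65 after median-ratio scaling (adjusted p = 0.00319), and the call held with each library left out and under each alternative setting. Vcam1, the ligand of the integrin VLA-4, had 5.70, 4.46, 5.53, 7.29 and 6.04 FPKM in nAAC and 3.23, 5.22, 4.55, 4.12 and 3.49 FPKM in sham. The groups overlapped through nAAC replicate 2 and sham replicates 2 and 3. The log2 FC was 0.41 (SE 0.14, adjusted p = 0.0389), and 0.18 after median-ratio scaling (adjusted p = 0.414). The call of Vcam1 was lost without any one of nAAC replicates 1, 3, 4 and 5 or sham replicates 1, 3 and 5, with an adjusted p of up to 0.102.

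The selectins, which slow leukocytes before they attach, were near the limit of detection and were not tested. Sele had 0.489, 0.498, 0.413, 0.536 and 0.961 FPKM in nAAC and 0.229, 0.300, 0.619, 0.129 and 0.332 FPKM in sham. Selp had 0.736, 0.183, 0.341, 0.505 and 0.168 FPKM in nAAC and 0.167, 0.0536, 0.0961, 0.0688 and 0.0285 FPKM in sham. Every nAAC value of Selp was above every sham value, by a very small margin between nAAC replicate 5 and sham replicate 1. When all genes were tested without a filter, Selp had an adjusted p = 0.0569. Leukocytes, mural cells and fibroblasts also make Icam1 or Vcam1, and their part in these rises was not tested. Of 11 tested macrophage and leukocyte markers 3 rose, a share close to the 27.1% called up among all tested genes. After median-ratio scaling 2 were called up and 1 down. The summed level of these markers was 168 to 336 FPKM in nAAC and 112 to 237 FPKM in sham. The pan-leukocyte marker Ptprc was at 1.03 to 2.07 FPKM in nAAC and 0.874 to 1.51 FPKM in sham and was not called.

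Klf4 and Klf2 are transcription factors that laminar blood flow induces in endothelium. Klf4 had 13.7, 11.8, 14.3, 23.0 and 16.0 FPKM in nAAC replicates 1 to 5 and 8.86, 9.52, 8.68, 10.8 and 11.5 FPKM in sham replicates 1 to 5. The groups did not overlap, although nAAC replicate 2 and sham replicate 5 were close, and nAAC replicate 4 was far above the others (log2 FC 0.59, SE 0.16, adjusted p = 0.0132). After median-ratio scaling the log2 FC of Klf4 was 0.34 (adjusted p = 0.0692). Klf2 had 19.6, 21.7, 42.9, 52.9 and 46.7 FPKM in nAAC and 18.9, 17.9, 21.5, 47.7 and 40.8 FPKM in sham. Both groups contained low and high libraries for Klf2, so that the spread within a group was larger than the difference between groups (log2 FC 0.32, SE 0.33, adjusted p = 0.474). Replicates 1 and 2 were low and replicates 4 and 5 were high in both groups. With the replicate number as a block in limma, the SE of Klf2 was 0.16 (adjusted p = 0.149). Klf4 is also made by smooth muscle cells and macrophages.

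The lymphatic genes of the set were not called. Prox1, the transcription factor that sets lymphatic fate and is also made by cardiomyocytes, averaged 6.55 ± 0.742 FPKM in nAAC and 6.06 ± 1.15 FPKM in sham (log2 FC 0.11). Lyve1, the hyaluronan receptor of lymphatic capillaries and of resident macrophages, had 8.01, 5.70, 5.27, 6.21 and 7.25 FPKM in nAAC and 4.91, 5.42, 5.18, 5.0 and 4.54 FPKM in sham. Only sham replicate 2 reached the lowest nAAC library (log2 FC 0.31, SE 0.12, adjusted p = 0.0632), and without nAAC replicate 3 Lyve1 was called up (adjusted p = 0.0408). Plvap, which forms the diaphragms of fenestrated and endocardial endothelium, averaged 6.33 ± 1.03 FPKM in nAAC and 5.21 ± 2.52 FPKM in sham and was highest in sham replicate 4 (9.44 FPKM), without which it was called up (adjusted p = 0.0162). The 3′ end of Plvap overlaps that of Gtpbp3 on the other strand, which averaged 3.90 FPKM over all libraries. Whether strand was used in counting is not given in the sources used here.

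A further 82 endothelial genes were sorted by vessel type, with tip cell genes as an added list. Like the members, they were chosen with earlier results of these data known, so they are no independent check of the classes. Of the 82 genes 77 were tested, of which 31 were called up (40.3%) and 5 down (6.49%), against 27.1% and 4.6% of all tested genes. After median-ratio scaling 14 were called up (18.2%) and 6 down (7.79%), against 13.2% and 12.1% of all tested genes. Of the 12 other capillary genes, 4 fell (33.3%) and 1 rose (8.33%), with a median log2 FC of -0.18. Timp4, a metalloproteinase inhibitor, was a DEG at 3.82 ± 1.81 FPKM in nAAC and 9.82 ± 1.87 FPKM in sham (log2 FC -1.26, adjusted p = 0.00326). The glycerol channel Aqp7 had a log2 FC of -0.93, lipoprotein lipase Lpl had -0.56 and the fatty acid carrier Cd36 had -0.54, all 3 with no overlap between groups. In 3.46% of all tested genes every sham library lay above every nAAC library. Timp4, Aqp7, Lpl and Cd36 are not specific to endothelium. Cardiomyocytes or adipocytes make them, and Lpl is the enzyme that Gpihbp1 holds. The part of those cells in these falls was not tested. Ly6a rose (0.48). Ly6c1, Sgk1 and Btnl9 were not called and had log2 FCs of 0.17, 0.13 and 0.21, above 0 but below the median of all genes. After median-ratio scaling Timp4, Aqp7, Lpl, Cd36 and Fabp4 were called down (41.7%), and Ly6a was not called. Of the 29 other general genes 6 rose, a smaller share than among all tested genes. They were led by Podxl (log2 FC 0.75), Kdr (0.66) and Cd34 (0.64), and the water channel Aqp1 fell (-0.76). After median-ratio scaling 2 of the 6, Podxl and Elk3, stayed called up, Kdr, the main VEGF receptor, and Cd34 were not called, and Aqp1 stayed called down.

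The 7 other lymphatic genes all rose, against 27.1% of all tested genes. Each had no overlap between groups, and nAAC lay above in this way in 18.9% of all tested genes. After median-ratio scaling 6 of the 7 were also called up (85.7%, against 13.2% of all tested genes). Ccl21a, a chemokine of lymphatic vessels, was at 29.6 to 51.3 FPKM in nAAC and 5.66 to 15.5 FPKM in sham (log2 FC 1.81, adjusted p = 6.40e-05). Fgl2, Pdpn and Flt4 had log2 FCs of 1.43, 1.29 and 1.07. Flt4 encodes the lymphatic VEGF receptor, Pdpn is also made by fibroblasts, and Fgl2 is also made by macrophages. Prox1 and Lyve1, with log2 FCs of 0.11 and 0.31, lay below the lowest of the 7, Pard6g (0.49).

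Of 9 tested tip cell genes, 8 rose (88.9%, against 27.1% of all tested genes). Of these, 4 (Esm1, Col4a2, Sparc and Col4a1) stayed called up after median-ratio scaling, where 13.2% of all tested genes were called up. Esm1, a secreted proteoglycan of sprouting endothelium, was at 2.50 to 3.64 FPKM in nAAC and 0.198 to 0.298 FPKM in sham (log2 FC 1.68, adjusted p = 3.08e-07). Its sham values were all below 1 FPKM, so Esm1 passed the filter, which uses the mean of all libraries, only through its nAAC values. The log2 FC of Esm1 was 1.54 after median-ratio scaling. Col4a2, Sparc and Col4a1 had log2 FCs of 1.37, 1.31 and 1.22 and are also made by fibroblasts and mural cells. Angpt2, another tip cell gene, was below the filter, at 0.653 to 1.16 FPKM in nAAC and 0.338 to 0.767 FPKM in sham. Apln (log2 FC -0.27, called down after median-ratio scaling) and Dll4 (0.33, not called on either scale) were counted as capillary and arterial genes and were not in this list. Of 11 tested other arterial genes 5 rose, a larger share than among all tested genes, led by Stmn2 (log2 FC 0.85). The other venous genes Nrp2 (0.68) and Il6st (0.61) rose. Of 5 other endocardial genes 1 rose (Npr3, 0.50), which is too few genes to tell this share from the 27.1% of all tested genes. After median-ratio scaling only Stmn2 of these 5 arterial genes was called up, and Nrp2, Il6st and Npr3 were not called (adjusted p = 0.159, 0.0912 and 0.282).

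**Figure D4:**
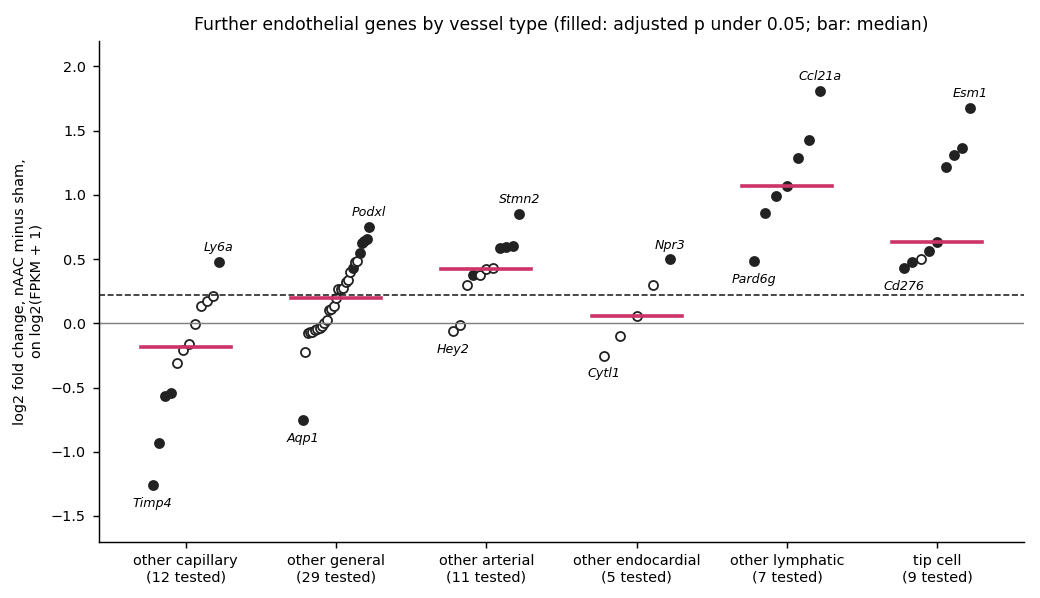
Log2 FC (nAAC minus sham, on the log2(FPKM + 1) scale) of the further endothelial genes that were tested, by vessel type, with the venous list left out. Filled points have an adjusted p below 0.05, red bars are medians, and the dashed line is the median of all tested genes (0.22). The points of the 7 lymphatic genes and all points of the tip cell list lie above the dashed line, and 11 of the 12 capillary genes lie below it.

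Markers of other cells are given beside the shares of all tested genes, 27.1% called up and 4.6% called down. After median-ratio scaling these shares were 13.2% and 12.1%. Of 10 fibroblast markers 7 rose, with a summed level of 1111 to 1764 FPKM in nAAC and 728 to 955 FPKM in sham, and of 10 mural cell markers 8 rose, with 320 to 449 FPKM in nAAC and 196 to 338 FPKM in sham. After median-ratio scaling 5 fibroblast markers were called up, as were 6 mural markers, while 1 mural marker (Abcc9) was called down. Of 12 cardiomyocyte markers 3 rose and 3 fell, and after median-ratio scaling 2 were called up and 4 down. None of 5 tested erythroid markers was called by limma or had an unadjusted p below 0.05, and of 4 tested atrial markers 1 rose, Nppa, which the stressed ventricle also makes. The shares of cardiomyocyte and of atrial markers called up were slightly below that of all tested genes. All 4 tested atrial markers nevertheless had a log2 FC above that of the median gene, from 0.88 to 6.07, and from 0.65 to 5.80 after median-ratio scaling. The part of these cells in the levels of the endothelial genes was not tested.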

How the data were processed

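RNA was extracted with Trizol from LV tissue and sequenced after preparation with the NEBNext Ultra RNA kit, per the labels. Each mouse had 1 table of genes, in which the authors deposited coverage (signal per base), FPKM and TPM. The submitters' processing notes name mm10. The aligner, the quantification tool and the use of strand are not given in the sources used here. Gene coordinates were identical to GENCODE M21 for 99.4% of 55141 shared genes. Rows sharing a gene ID were summed. Depth was derived from the modal FPKM to coverage ratio, which few genes share. Read counts could not be recovered, so no count model was used.

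Values were compared as log2(FPKM + 1) with limma 3.58.1 in R 4.3.3 (empirical Bayes with a trend), keeping a gene if its FPKM averaged 1 or more, with Benjamini-Hochberg adjustment over 11867 genes. The 5 nAAC and 5 sham mice entered with no covariate. The test was checked on simulated data. Member genes, lists and tests were chosen with earlier results of these data known. The rule for naming genes was that every member is accounted for, that called members are given with all values, and that up to 4 called genes with the largest log2 FC are given from each further endothelial list, together with defining markers of other cells. The deposited labels do not say whether mice of a group came from separate litters.

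The alternatives tried were scaling by median ratios or by upper quartiles, TPM, rescaling without mitochondrial genes, no filter, a replicate block, a smaller pseudocount (0.1), the Xist level as covariate, removal of GC and length trends by loess, and leaving out each of 10 libraries. Coverage in place of FPKM, median-ratio scaling with Xist, and median-ratio scaling without sham replicate 4 were added after seeing the data. One gene of the further venous list is not reported here. Promoters came from RefSeq (GRCm38.p6). Tables and figures were made in Python 3.11.15 (pandas 2.3.3, matplotlib 3.10.9).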

Additional observations from a re-analysis of the deposited data

Results flagged for a closer look

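Within each group of 5 mice, the gap between the most extreme library and its nearest neighbor was divided by the range of the group and compared with Dixon's critical value of 0.710. Of 90 groups examined, 6 passed, where chance gives about 1 in 20, or 4.5. In sham, replicate 5 was the highest library for Robo4 (0.800, at 11.0 FPKM), Dll4 (0.843, at 5.89 FPKM) and Ephb4 (0.870, at 18.8 FPKM), and for the mean of the 15 general endothelial genes (0.729). In nAAC, replicate 5 was the highest library for Sele (0.746, at 0.961 FPKM). Sham replicate 1 was the lowest library for the mean of the tested adhesion genes (0.718). Without sham replicate 5, Robo4 stayed called up (log2 FC 0.76, adjusted p = 0.00199) and Dll4, Ephb4, Nos3 and Sox17 became called up.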

How the results depend on the processing

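The 9 called genes kept their direction in every setting, and Car4 and Icam1 kept their call in all. Of the 27 genes that were not called, 19 changed sign in at least 1 setting. The number of endothelial genes called up, 8, was 2 with median-ratio scaling, upper-quartile scaling, Xist as a covariate, GC and length trends removed, median-ratio scaling with Xist, and median-ratio scaling without sham replicate 4. It was 16 with TPM, 5 when rescaled without mitochondrial genes, 4 with no filter, and 4 to 11 with each library left out, with 4 without nAAC replicate 4 or 5 or sham replicate 3 and 5 without nAAC replicate 1. The number called down, 1, was 4 with median-ratio or upper-quartile scaling or median-ratio scaling with Xist, 3 with Xist or with median-ratio scaling without sham replicate 4, and 5 with GC and length trends removed. The second DEG was Icam1 with TPM or a pseudocount of 0.1 and Rgcc with median-ratio scaling and Xist, which made 2. With Xist as a covariate, Eng, Klf4, Notch1, Robo4, Sox18 and Vcam1 lost their calls and Gpihbp1 and Rgcc were called down.

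Of the further endothelial genes, 31 called up became 14 with median-ratio or upper-quartile scaling, 16 with Xist, 17 with GC and length trends removed, 10 with median-ratio scaling and Xist, and 15 with that scaling without sham replicate 4. The 5 called down became 3 with TPM, 9 with median-ratio scaling without sham replicate 4, and 3 to 5 with each library left out; they were 3 without nAAC replicate 2 or 3. With no filter the class median minus that of all genes was 0.27 for venous and 0.17 for lymphatic genes, since the median of all genes fell to 0.03. The cause of the other changes was not tested. With the replicate number as a block, 7 genes were called up and 1 down, Vcam1 lost its call and none gained one. Deviations of same-numbered libraries correlated at -0.32 to 0.19 over all tested genes. Whether the numbers pair the mice cannot be told from these values. Depth could only be estimated, and genes whose mean over all libraries was below 1 FPKM, such as the selectins, were not tested when the filter was used.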
